A study of Mus musculus with 6 samples.

Results

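The mouse genes named for CCAAT/enhancer binding proteins (C/EBP) that were detected in this tissue, Cebpa, Cebpb, Cebpd, Cebpg and Cebpz, were followed in the frontal cortex of GFAP-IL6 and wild-type (WT) mice. They were chosen by name, out of 33000 genes in the table, with earlier results of these data known. All 5 passed the filter on low counts, which the choice of detected genes in part fixed. The libraries were full-length TruSeq RNA-seq libraries from 3 homozygous GFAP-IL6 mice and 3 WT mice, all C57BL/6 and 3 months old. In the GFAP-IL6 line the promoter of Gfap, a gene of astrocytes, drives an interleukin-6 transgene, so the cytokine is made inside the brain. Library totals ranged from 11591066 to 16877001 counts in WT and from 7559524 to 11072008 in GFAP-IL6. Il6 was counted 0, 2 and 0 times in the WT libraries and 12, 10 and 24 times in the GFAP-IL6 libraries, in the direction of the labels.

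C/EBP proteins bind DNA as dimers through a basic region followed by a leucine zipper (bZIP). C/EBPα drives differentiation of myeloid cells, liver and fat, C/EBPβ and C/EBPδ are switched on by IL-6, IL-1 and other inflammatory signals and act on acute-phase genes, and C/EBPγ lacks an activation domain and pairs with other bZIP proteins, among them Atf4. Cebpz carries the family's name but encodes a nucleolar protein without a bZIP domain, first described as a CCAAT-binding factor. In the brain C/EBPβ and C/EBPδ are best known from activated microglia and astrocytes.

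Reads that fall wholly in a stretch shared by several genes cannot be assigned to one of them. The runs of bases that member transcripts share were therefore measured. The longest run of bases shared by any pair of member transcripts of the GENCODE M21 annotation was 29 bases, between Cebpa and Cebpb, and the next was 27 bases, between Cebpb and Cebpd. Every other pair shared at most 14 bases in a row. Both runs lie wholly in coding sequence, and they are shown because they are where these 3 transcripts are hardest to tell apart. Capitals mark every stretch of 14 bases that also occurs in the transcript of the remaining one of the 3 genes, which covers 28 of the 29 bases of the first run, with Cebpd, and 14 of the 27 of the second, with Cebpa.
Cebpa and Cebpb: CGCAACAACATCGCgGTGCGCAAGAGCCG
Cebpb and Cebpd: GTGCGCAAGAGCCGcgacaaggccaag
The first run is at chr7:35120292-35120320 in Cebpa and chr2:167689712-167689740 in Cebpb, and the second at chr2:167689727-167689753 in Cebpb and chr16:15887937-15887963 in Cebpd (GRCm38, plus strand). The GC content of the longest transcript was 62.6% for Cebpa, 67.2% for Cebpb, 51.6% for Cebpd, 43.3% for Cebpg and 43.4% for Cebpz, against a median of 48.7% over 21728 protein-coding genes.

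Cebpd and Cebpa were higher in GFAP-IL6 cortex, and the other members did not pass the test. By edgeR's quasi-likelihood test, 2 of the 5 members had a Benjamini-Hochberg adjusted p under 0.05, where 2.86% of the 15341 genes tested did. In 3 of the 5 members every GFAP-IL6 library lay above every WT library, as in 13.8% of all genes tested, and in none did the groups separate the other way. With the further requirement of an absolute log2 fold change over 1, which 1.38% of genes met, Cebpd was left.

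**Figure D1:**
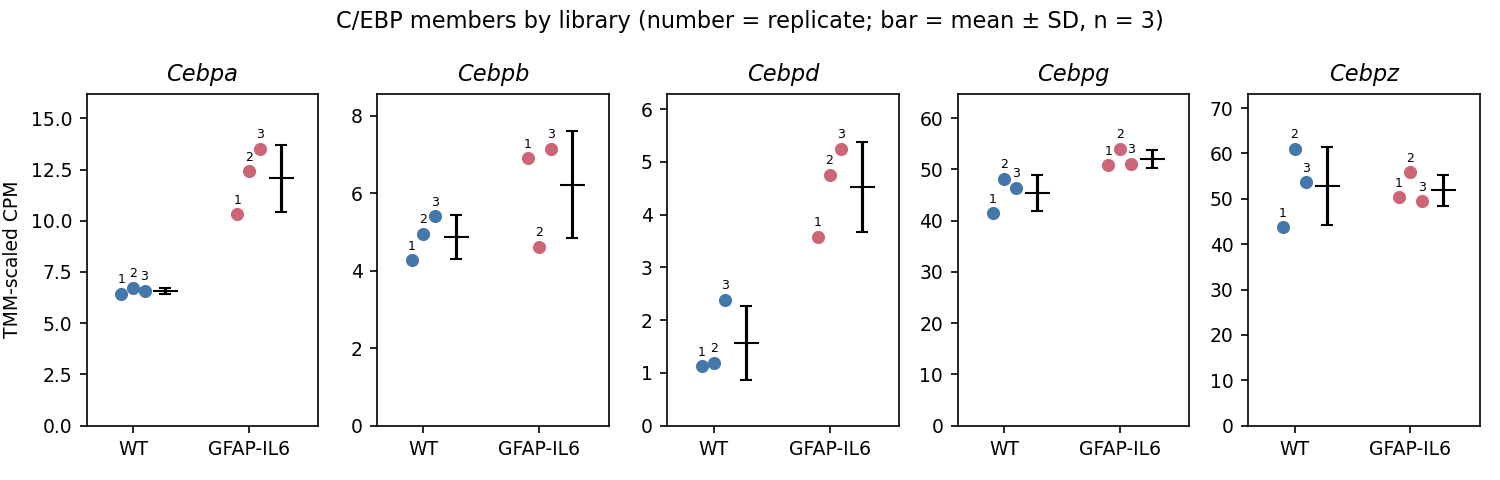
TMM-scaled CPM (counts divided by the library's scaled total, y axis, each panel with its own scale from 0) of the 5 members in the 3 WT and 3 GFAP-IL6 libraries; each point is 1 library, numbered by replicate, and the bars give the mean ± SD. The groups are apart for Cebpa, Cebpd and Cebpg and overlap for Cebpb and Cebpz.

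Cebpd (ENSMUSG00000071637.4, chr16:15887286-15891031, plus strand) encodes the member that is induced most sharply in acute-phase responses. It was counted 13, 20 and 38 times in WT replicates 1, 2 and 3, and 40, 36 and 47 times in GFAP-IL6 replicates 1, 2 and 3. As CPM, counts scaled to library size by the TMM method, these were 1.13, 1.19 and 2.39 CPM in WT and 3.59, 4.75 and 5.25 CPM in GFAP-IL6. The lowest GFAP-IL6 library lay above the highest WT library, although WT replicate 3 stood well above the other WT libraries. Means were 1.57 ± 0.707 CPM in WT and 4.53 ± 0.853 CPM in GFAP-IL6 (SD, n = 3 each), a 2.80-fold rise (log2 fold change 1.49 ± 0.31 SE, 95% interval 0.82 to 2.15, adjusted p = 0.0184 by edgeR). Its log2 fold change, with its sign, was higher than that of 99.3% of the genes tested.

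The level of Cebpd rests on few counts, and its call on single libraries. Without GFAP-IL6 replicate 2 the log2 fold change was 1.45 (adjusted p = 0.0749 by edgeR), and without GFAP-IL6 replicate 3 it was 1.37 (adjusted p = 0.149). Without WT replicate 3 it was 1.93, with an adjusted p of 0.00360. DESeq2 with a prior that shrinks fold changes gave 0.58 with an adjusted p of 0.00434. WT replicate 3 also stood apart in choroid plexus markers, whose summed level was 614 CPM there, 3.66 and 18.8 CPM in the other WT libraries and 5.36 to 60.1 CPM in GFAP-IL6. The part of that tissue in the Cebpd count of the library was not tested. The deposited table gives Cebpd a length of 1180 bases and the type pseudogene, while GENCODE M21 annotates it as protein coding with 3746 exonic bases, so the counts cover a shorter model of the gene.

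Cebpa (ENSMUSG00000034957.9, chr7:35119293-35121928, plus strand), the myeloid and metabolic member, was counted 74, 113 and 105 times in the WT libraries and 115, 94 and 121 times in the GFAP-IL6 libraries. The scaled levels were 6.45, 6.74 and 6.59 CPM in WT and 10.3, 12.4 and 13.5 CPM in GFAP-IL6. WT libraries were nearly level with each other, and the GFAP-IL6 libraries all exceeded them. The mean rose from 6.59 ± 0.147 to 12.1 ± 1.63 CPM (SD, n = 3 each), or 1.82-fold, with a log2 fold change of 0.86 ± 0.15 SE (95% interval 0.54 to 1.19, adjusted p = 0.00603 by edgeR). The log2 fold change, with its sign, was higher than that of 97.5% of the genes tested. Leaving out GFAP-IL6 replicate 3, the highest library, brought the log2 fold change to 0.78 and the adjusted p by edgeR to 0.0577.

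Cebpb (ENSMUSG00000056501.3, chr2:167688915-167690418, plus strand) is a gene of 1 exon and the member first cloned as a nuclear factor of IL-6 expression. Its counts were 49, 83 and 86 in WT and 77, 35 and 64 in GFAP-IL6, which gave 4.27, 4.95 and 5.40 CPM and 6.90, 4.62 and 7.14 CPM. GFAP-IL6 replicates 1 and 3 exceeded the WT libraries, and replicate 2 lay among them. The means of 4.87 ± 0.570 and 6.22 ± 1.39 CPM (SD, n = 3 each) differed by a log2 fold change of 0.36 ± 0.20 SE, which did not pass the test (95% interval -0.08 to 0.80, adjusted p = 0.331 by edgeR). The interval holds both no change and a rise close to that of Cebpa, so the depth and number of libraries do not separate them.

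Cebpg (ENSMUSG00000056216.8, chr7:35046422-35056573, minus strand) lies on the same chromosome as Cebpa, with 62719 bases between the genes. Its counts were much higher, at 476, 808 and 739 in WT and 567, 409 and 458 in GFAP-IL6, or 41.5, 48.2 and 46.4 CPM against 50.8, 54.0 and 51.1 CPM. The lowest GFAP-IL6 library exceeded the highest WT library by a narrow margin. From 45.4 ± 3.49 to 52.0 ± 1.76 CPM (SD, n = 3 each), the log2 fold change was 0.19 ± 0.09 SE (95% interval 0.01 to 0.38). The unadjusted p of 0.0434 by edgeR became an adjusted p of 0.229, where 20.5% of all genes tested had an unadjusted p under 0.05.

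Cebpz (ENSMUSG00000024081.8, chr17:78919006-78937066, minus strand) showed no difference beyond the spread of the libraries. It was counted 502, 1023 and 855 times in WT and 562, 423 and 443 times in GFAP-IL6, or 43.7, 61.0 and 53.7 CPM and 50.4, 55.9 and 49.5 CPM. The GFAP-IL6 libraries fell inside the WT range. Means were 52.8 ± 8.68 and 51.9 ± 3.46 CPM (SD, n = 3 each) and the log2 fold change was -0.03 ± 0.11 SE (95% interval -0.28 to 0.21, adjusted p = 0.900 by edgeR). The sign of this value turned when single libraries were left out, so no direction is given.

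**Figure D2:**
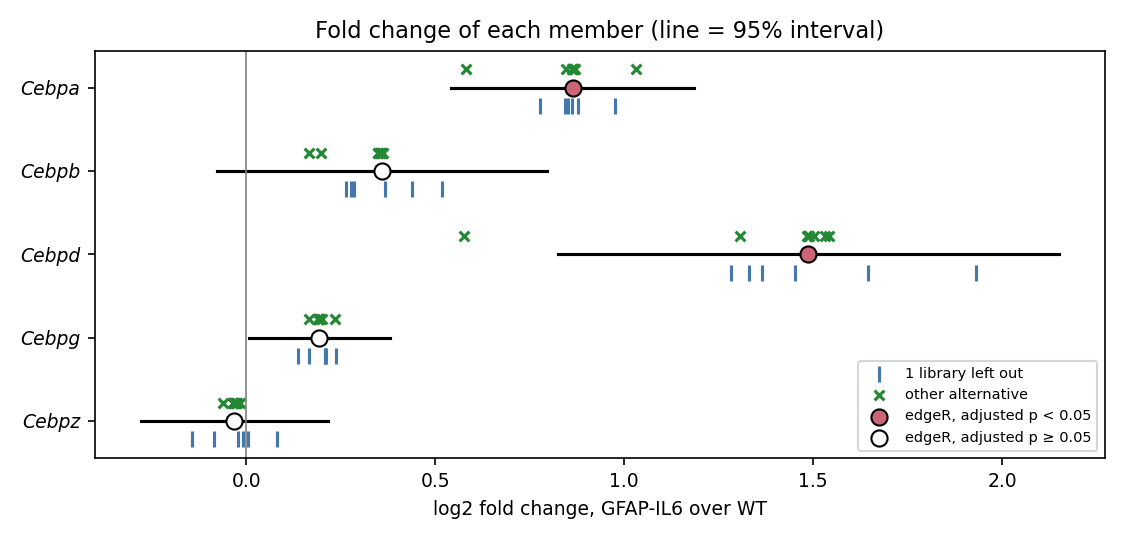
Log2 fold change of GFAP-IL6 over WT (x axis) for each member by edgeR, with its 95% interval as a line; filled circles had an adjusted p under 0.05, blue ticks are fits with 1 library left out and green crosses are the other alternatives. Cebpd and Cebpa lie to the right of 0 under every alternative, with the lowest Cebpd value, 0.58, from DESeq2 with a prior, and the Cebpz values lie on both sides of 0.

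Levels of different genes can be compared once counts are divided by gene length, as TPM, the share of each gene in all transcripts of a library scaled to a common total. In WT cortex the order was Cebpz at 35.9 ± 4.89 TPM, Cebpg at 25.5 ± 1.29, Cebpb at 8.98 ± 0.945, Cebpa at 6.94 ± 0.050 and Cebpd at 3.69 ± 1.67 TPM (SD, n = 3), and no neighbours in it overlapped between libraries. In GFAP-IL6 cortex Cebpz stayed first at 37.1 ± 2.29 TPM and Cebpg second at 30.7 ± 0.848 TPM. The lower 3 had drawn together, with Cebpa at 13.4 ± 1.70, Cebpb at 12.1 ± 2.76 and Cebpd at 11.2 ± 2.02 TPM. Cebpa and Cebpb overlapped between libraries there, as did Cebpb and Cebpd. TPM of Cebpz was slightly higher in GFAP-IL6 while its CPM was slightly lower, both within the spread.

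The 4 bZIP members summed to 41.8, 44.8 and 48.7 TPM in WT and to 64.4, 65.9 and 71.7 TPM in GFAP-IL6. The groups did not overlap, and the exact two-sided permutation p was 0.1, the smallest that 3 libraries against 3 allow. Cebpg made up 56.6 ± 2.62% of that sum in WT and 45.7 ± 3.30% in GFAP-IL6. The share of Cebpd went from 8.06 ± 3.03% to 16.5 ± 2.28% and that of Cebpa from 15.5 ± 1.21% to 19.8 ± 1.63%, while that of Cebpb was 19.9 ± 0.565% and 17.9 ± 3.93% (SD, n = 3). These are shares of RNA and say nothing of the proteins or dimers present.

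**Figure D3:**
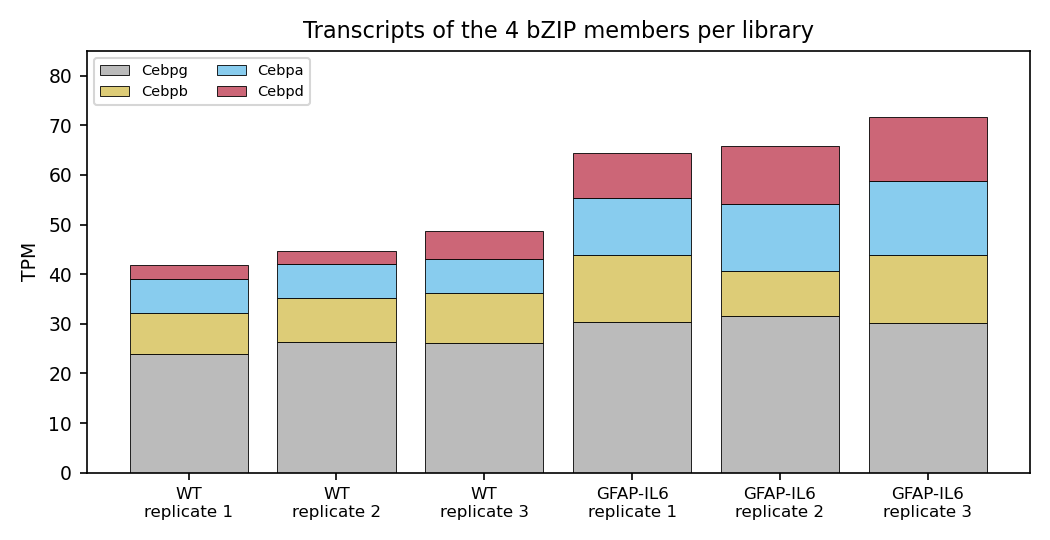
TPM, the length-normalised level (y axis), of Cebpg, Cebpb, Cebpa and Cebpd stacked for each of the 3 WT and 3 GFAP-IL6 libraries. The summed height runs from 41.8 to 48.7 TPM in WT and from 64.4 to 71.7 TPM in GFAP-IL6, and the Cebpd and Cebpa segments are the ones that differ most between groups.

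Ratios between members within a library do not depend on the scaling of the library. The log2 ratio of Cebpd to Cebpg was higher in GFAP-IL6 by 1.40 ± 0.37 SE and that of Cebpa to Cebpg by 0.67 ± 0.12, with no overlap of the groups in either. The log2 ratio of Cebpd to Cebpb was higher by 1.27 ± 0.39, again without overlap. In each of these 3 the two-sided exact permutation test gave p = 0.1, the floor of the design, and 0.133 after Benjamini-Hochberg adjustment over the 4 ratios examined. For Cebpb to Cebpg, the inducible activator over the partner without an activation domain, the difference was 0.13 ± 0.24 and the exact permutation p was 0.7.

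Upstream sequence was available from RefSeq (GRCm38.p6) for Cebpa, Cebpb and Cebpg, as the 250 bases before and 50 bases after the gene start. GC content of these windows was 67.3%, 80.7% and 71.7%, against a median of 52.7% over 32851 promoters. Both strands were searched for STAT sites (TTCNNNGAA), C/EBP sites (TTGCNNAA), the full cAMP response element (TGACGTCA), its shorter core TGACG, the CCAAT box and the C/EBP-ATF element (TGATGNAA). A full cAMP response element also holds the shorter core. These letters occur in 8.30%, 10.8%, 1.79%, 20.8%, 37.4% and 3.97% of all promoters. None of them was found in the Cebpa window. The Cebpb window held the shorter core 3 times, and the Cebpg window held 2 CCAAT boxes, both on the opposite strand. They are shown for the inducible Cebpb and for Cebpg, a pair that did not pass the test, with the motif in capitals each window read on the strand of its gene, and the position of the motif's first base counted from the gene start.
Cebpb, position -180, opposite strand: ggcgggctggCGTCAcccgcgtccg
Cebpb, position -53: ggccgggcaaTGACGcgcaccgacc
Cebpb, position -7: ggccccagcgTGACGcagcccgttg
Cebpg, position -89, opposite strand: acggcctgtgATTGGctggtggagc
Cebpg, position -28, opposite strand: cagcgcttctATTGGtcacggcggc
The Cebpb windows are at chr2:167688725-167688749, chr2:167688852-167688876 and chr2:167688898-167688922, and the Cebpg windows at chr7:35056641-35056665 and chr7:35056580-35056604.

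Genes that overlap a member can lend or take reads, since the use of strand in counting is not stated. Tmem189, on the opposite strand, shares 312 exonic bases with Cebpb, or 20.7% of its exons, and had a log2 fold change of -0.15 (adjusted p = 0.491 by edgeR). Spidr shares 562 exonic bases with the M21 model of Cebpd on the opposite strand, 15.0% of it, and had a log2 fold change of 0.18 (adjusted p = 0.740). Spidr spans chr16:15889224-16146851, and Cebpd starts at chr16:15887286. The counted model of Cebpd is only 1180 bases long, and whether it reaches Spidr was not tested. Cebpzos, a small gene opposite Cebpz that shares 171 exonic bases with it, was counted 173, 355 and 296 times in WT and 170, 93 and 122 times in GFAP-IL6. Its log2 fold change of -0.41 ± 0.14 SE had an adjusted p of 0.140 by edgeR, and without WT replicate 1 it was -0.52 with an adjusted p of 0.0350. Ndufaf7, whose start is 70 bases from Cebpz, was at -0.13 (adjusted p = 0.410), and Pepd, 1714 bases from Cebpg, at 0.01 (adjusted p = 0.979). A530013C23Rik, 759 bases from Cebpb, was too low to be tested.

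Of the remaining C/EBP genes, Cebpe, a factor of late granulocyte maturation, was counted 0 times in all 6 libraries, which at 3 counts allows a level of up to 0.179 to 0.396 CPM depending on the library. Ddit3, which encodes the C/EBP-related factor CHOP, had a log2 fold change of -0.09 ± 0.10 SE (adjusted p = 0.659 by edgeR). Among 10 bZIP partners of the C/EBP proteins 6 could be tested and none passed by edgeR, 1 of them with an unadjusted p under 0.05, with a median log2 fold change of -0.05. The count was 1 by DESeq2, and also by edgeR with no filter, when thinned, with a replicate block and without WT replicate 1. The list of PAR bZIP factors with Nfil3, which bind related sites, had 4 genes, all tested, with a median of -0.06, and 0.209% of all genes were called lower. One of its genes fell, Dbp, an output gene of the circadian clock (67.4 ± 2.27 to 49.8 ± 6.05 CPM, log2 fold change -0.44 ± 0.10 SE, adjusted p = 0.0262 by edgeR). That call was lost without WT replicate 3 (adjusted p = 0.0917) and without any single GFAP-IL6 replicate, with adjusted p of 0.0697 without replicate 1, 0.0506 without replicate 2 and 0.154 without replicate 3.

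Upstream of Cebpb and Cebpd, in the list of cytokine receptors and signalling genes, all 17 genes were tested, 6 rose, none fell, and the median log2 fold change was 0.42, beside -0.00 over all genes tested, of which 2.65% were called higher. Il1r1, the signalling receptor of interleukin-1, rose by a log2 fold change of 2.06 ± 0.14 SE (adjusted p = 5.3e-06 by edgeR). Socs3, the feedback inhibitor of IL-6 signalling, was at 2.73 ± 0.264 CPM in WT and 10.4 ± 1.68 CPM in GFAP-IL6 (log2 fold change 1.92, adjusted p = 7.4e-05). Stat3, the main transcription factor below the IL-6 receptor, rose by 0.80 ± 0.11 and the TNF receptor gene Tnfrsf1a by 1.02 ± 0.14. Il6ra and Tnfrsf1b were the other 2. Of 14 genes that act on C/EBP proteins, 2 rose and none fell, with a median of 0.05. They were Trib1, whose product sends C/EBPα for degradation, at 14.6 ± 0.138 CPM in WT and 27.0 ± 4.37 CPM in GFAP-IL6 (log2 fold change 0.89 ± 0.12 SE, adjusted p = 0.00129 by edgeR), and Rps6ka1, a kinase that phosphorylates C/EBPβ, at 0.71 ± 0.12.

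**Figure D4:**
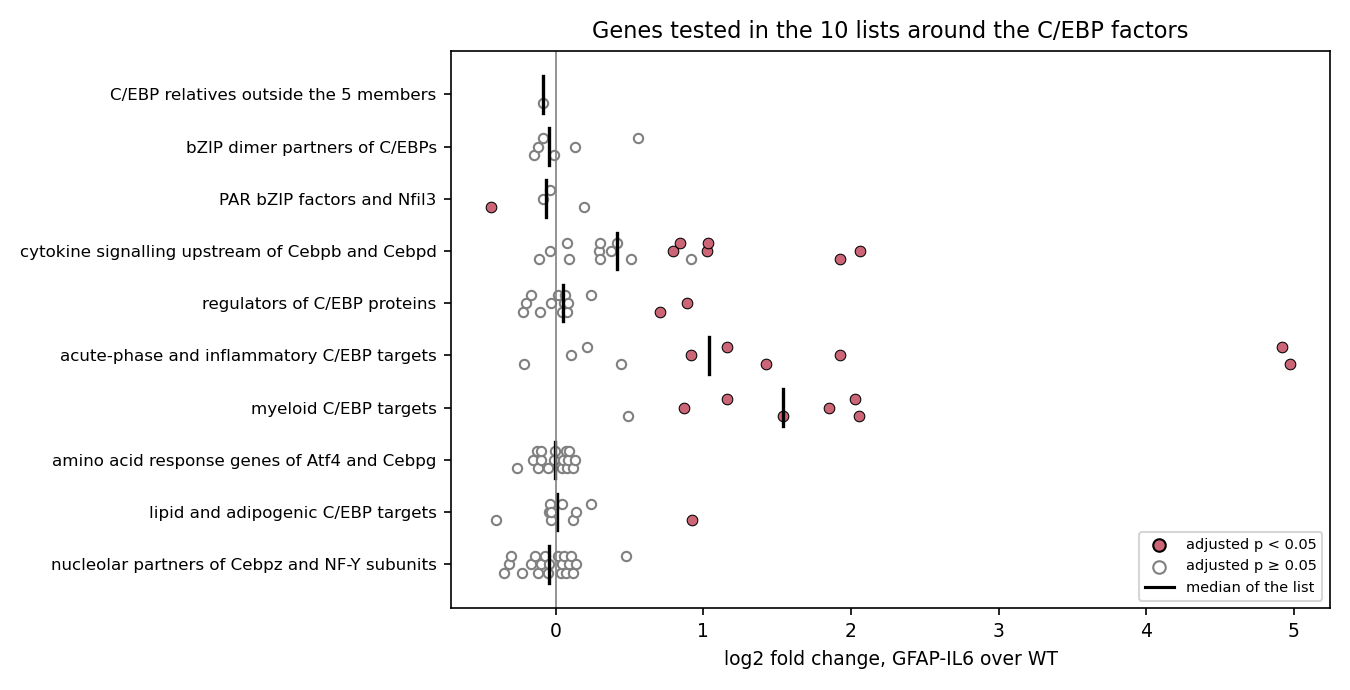
Log2 fold change of GFAP-IL6 over WT (x axis) of each tested gene in the 10 lists around the C/EBP factors (y axis); filled points had an adjusted p under 0.05 by edgeR and the bar is the median of the list. Called genes lie mostly in the cytokine, acute-phase and myeloid lists, and the amino acid response and nucleolar lists hold none. In the acute-phase list Lbp, C3, Il6 and A2m were tested because of their GFAP-IL6 libraries, and 3 of the other 6 genes were called. Among all genes tested 2.86% were called.

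Of 32 acute-phase and inflammatory targets 10 passed the filter on low counts, and 4 of these, Lbp, C3, Il6 and A2m, were below its minimum in at least 1 WT library, so that their GFAP-IL6 libraries decided that they were tested. Of the other 6, 3 rose and none fell, and their median was 0.68, where 2.65% of all genes tested were called higher. Over all 10 the count was 6 and the median 1.04, which the filter and the transgene in part fix. C3, the central complement component, was counted 0, 5 and 2 times in WT and 50, 25 and 71 times in GFAP-IL6 (log2 fold change 4.97 ± 0.53 SE, adjusted p = 0.000169 by edgeR). With so few WT counts its size is loose, at 4.56 without WT replicate 1, 5.97 without WT replicate 2, 6.42 when thinned to the smallest library and 1.14 by DESeq2 with a prior. Serpina3n rose by a log2 fold change of 1.43 ± 0.20 and Cp, which encodes ceruloplasmin, by 0.92 ± 0.13. Il6 itself, A2m and Cd14 were also called. Il6 counts from the transgene and from the mouse gene cannot be told apart. Lcn2, counted 0, 1 and 0 times in WT and 1, 21 and 15 times in GFAP-IL6, was below the filter, and the liver genes Orm1, Orm2, Apcs and Fgb were at 0 in all libraries.

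Of 17 myeloid targets 7 were tested, 6 rose and none fell, with a median of 1.54. Among all genes tested 2.65% were called higher and the median was -0.00. Itgam rose from 26.1 ± 1.80 to 106.6 ± 10.2 CPM (log2 fold change 2.03 ± 0.10 SE, adjusted p = 3.0e-07 by edgeR). Lyz2, lysozyme, rose by 2.06 ± 0.14, Csf3r, the G-CSF receptor, by 1.85 ± 0.15 and Csf1r, the receptor that microglia need to survive, by 0.87 ± 0.09. Spi1 and Cd14 made up the 6, and the neutrophil gene Elane was at 0 in all libraries.

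Among genes of the amino acid response that Atf4 and Cebpg share, 17 of 18 were tested and none passed by edgeR, 1 of them with an unadjusted p under 0.05, with a median of -0.01. Of 13 lipid and adipogenic targets 10 were tested and Klf4 rose (3.94 ± 0.870 to 7.31 ± 1.05 CPM, log2 fold change 0.92 ± 0.21 SE, adjusted p = 0.0301 by edgeR), with a median of 0.01. The Klf4 call was lost without WT replicate 3, with an adjusted p of 0.0757, and without any single GFAP-IL6 replicate, at 0.0648 to 0.167. All 21 nucleolar partners of Cebpz and NF-Y subunits were tested and none passed by edgeR, 5 of them with an unadjusted p under 0.05, with a median of -0.05. By edgeR with no filter 3 of them passed, and 1 passed with a replicate block or without WT replicate 1. Over the 10 lists together, 104 of 144 distinct genes were tested, of which 20 rose and 1 fell. Among all genes tested 2.65% were called higher, 0.209% were called lower and 20.5% had an unadjusted p under 0.05 by edgeR. The 20 include C3, A2m and Il6, whose GFAP-IL6 libraries decided that they were tested, and Il6 is the gene of the transgene.

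Markers of several cell types moved with the same groups. Among all genes tested 2.65% were called higher, 0.209% were called lower and 20.5% had an unadjusted p under 0.05 by edgeR. Of 10 microglial markers 9 were called higher, with a median log2 fold change of 0.88, and their summed level was 423 to 519 CPM in WT and 887 to 1019 CPM in GFAP-IL6, with none at 0. Of 8 endothelial markers 5 were called higher, and the sum was 245 to 263 CPM and 365 to 408 CPM. Of 12 neutrophil and monocyte markers Csf3r alone could be tested, and it was higher. Elane and Cxcr2 were at 0, and the sum was 5.66 to 8.16 CPM in WT and 21.9 to 27.0 CPM in GFAP-IL6. Most of that sum was Csf3r itself, at 6.14 ± 1.31 CPM in WT and 22.4 ± 1.83 CPM in GFAP-IL6 (SD, n = 3 each). Csf3r is also among the myeloid targets above, so the sum repeats that gene and does not show a rise of the other markers. Of 8 astrocyte markers 1 was called, Gfap, at 94.5 ± 24.8 CPM in WT and 678 ± 179 CPM in GFAP-IL6, while the sum of 5188 to 6526 CPM and 6143 to 7435 CPM overlapped. Of these 8 astrocyte markers 3 had an unadjusted p under 0.05 by edgeR, and 5 had a log2 fold change above 0. None of the 8 neuronal, 8 oligodendrocyte, 8 striatal, 6 meningeal or 5 blood markers was called by edgeR. An unadjusted p under 0.05 was found for 3, 0, 1, 0 and 0 of them. The striatal markers had a median log2 fold change of -0.46, with 0 of the 8 above 0. Their sum was highest in WT replicate 2, at 400 CPM. It was 200 and 207 CPM in the other WT libraries and 179 to 227 CPM in GFAP-IL6. Only 3 of the 7 choroid plexus markers could be tested and none was called, 2 of them with an unadjusted p under 0.05. Their median log2 fold change was -2.15, and the sum was highest in WT replicate 3, at 614 CPM. Lymphocyte markers were too low to be tested. The summed level of the neuronal markers was 8580 to 9011 CPM in WT and 7660 to 8495 CPM in GFAP-IL6, lower in every GFAP-IL6 library (two-sided exact permutation p = 0.1), and 1 of the 8 had a log2 fold change above 0. In bulk tissue more cells of a type cannot be told apart from more RNA per cell, and the part of microglia in the rise of Cebpa and Cebpd was not tested.

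The genes whose log2 CPM followed each member most closely over the 6 libraries were found by Pearson's r among 15340 genes, as a description only, since the libraries share the group difference. For Cebpa these were Pign (r = 0.998) and Fndc8 (0.997), and 265 genes had r over 0.95. For Cebpd they were Gm26944 (0.996) and 4932418E24Rik (0.994), of 135 genes over 0.95. For Cebpb they were Gm26693 (0.996) and Has1 (0.995), for Cebpg Dlec1 (0.992) and Ctbp2 (0.988), and for Cebpz Rnf113a1 (0.983) and Nit2 (0.982), with 30, 50 and 28 genes over 0.95. None of these 10 genes passed the test between the groups by edgeR, and their adjusted p ranged from 0.0794 for Fndc8 to 0.875 for Rnf113a1. With no filter on low counts Fndc8 passed, with an adjusted p of 0.0469 by edgeR.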

How the data were processed

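The authors aligned reads with STAR (version 2.4) and counted them per gene with featureCounts, and deposited raw counts of 33000 genes with gene length (bases) and gene type. The submitters' notes name hg19, whereas the study's methods name mm10 for mouse. Of the identifiers, 32593 matched GENCODE M21 (GRCm38), all on the same chromosome, so the counts are of a mouse genome. Counts were filtered by expression, scaled by TMM and tested with edgeR 4.0.16 (quasi-likelihood, R 4.3.3) between 3 GFAP-IL6 and 3 WT libraries, with Benjamini-Hochberg adjustment over 15341 genes. Intervals use the moderated degrees of freedom. TPM was computed from the deposited counts and lengths. Ratios were tested by exact permutation. The procedure was tested on simulated data. Alternatives were DESeq2 1.42.0 with and without a prior, limma 3.58.1 (voom), DESeq2 size factors, other filters, thinning, a replicate block and leaving out each library. Members and lists were chosen with earlier results of these data known. Named genes were the members, Il6, Gfap, Cebpe, Ddit3, neighbours within 5 kb, up to 4 called genes with the smallest adjusted p per list, and the 2 genes most like each member. Other called genes of a list, Lcn2 and genes at 0 were named after their values were seen. The labels do not say whether RNA was prepared separately for each animal, so p-values measure the spread between these libraries. No pair of libraries had equal counts within sampling noise (chi-square per degree of freedom 2.23 to 20.1). Floors cover counting error only.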

Additional observations from a re-analysis of the deposited data

How the results depend on the processing

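Cebpa was past the threshold in 13 of 14 alternatives and Cebpd in 12 of 14, and Cebpb, Cebpg and Cebpz in 0 of 14. Leaving out single libraries gave log2 fold changes of 0.78 to 0.97 for Cebpa, 1.28 to 1.93 for Cebpd, 0.26 to 0.52 for Cebpb, 0.14 to 0.24 for Cebpg and -0.15 to 0.081 for Cebpz. Cebpz turned positive without WT replicate 2 (0.081) and without GFAP-IL6 replicate 3 (0.00). DESeq2 with a prior gave 0.58 for both Cebpa and Cebpd. Thinned to the smallest library, the Cebpb to Cebpg log2 ratio turned to -0.073. Replicate numbers are shared between the groups, but same-numbered libraries deviated together with correlations of only 0.0996, 0.0147 and 0.0211, and WT replicate 2 correlated better with GFAP-IL6 replicate 3 (0.0524). With a replicate block, Cebpa was at 0.87 (adjusted p = 0.00637 by edgeR) and Cebpd at 1.54 (adjusted p = 0.00655), and the count of genes past the threshold was 750, against 439 without it. That count was 1154 without a filter and 187 to 1061 with 1 library left out (1061 without WT replicate 1, 282 without GFAP-IL6 replicate 2 and 187 without GFAP-IL6 replicate 3). Genes of the lists past the threshold numbered 32 without a filter, against 21. Among the other named genes, Pepd turned to -0.00245 with limma-voom, and ranged from -0.070 to 0.064 with 1 library left out, Spidr from -0.11 to 0.37, Rnf113a1 from -0.15 to 0.016 and Nit2 from -0.26 to 0.11. When thinned, Rnf113a1 turned to 0.016 and Nit2 to 0.039. The cause of these changes was not tested, beyond the fewer libraries or counts that thinning and leaving out give. Among the members Cebpd had the fewest counts, 13 to 47 a library.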

Other observations

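The gene type deposited with the counts lists Cebpd among 179 pseudogenes, of which 4 are protein coding in GENCODE M21, so a filter on that column would drop it. A2m, picked after its values were seen, was like Cebpd counted most often in replicate 3 among the WT libraries. It had 10, 27 and 63 counts in WT replicates 1, 2 and 3 and 73, 59 and 100 in GFAP-IL6. How many other genes share this was not tested.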
